A study of Mus musculus with 2 samples.

Results

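The genes described here are 10 transcription factors known from blood vessels, namely Sox7, Sox17, Sox18, Erg, Fli1, Klf2, Klf4, Gata2, Epas1 and Hey1. They were chosen by name, and all 10 are listed among the 27254 genes of the count matrices, in Batch 1 (23977 genes) as well as in Batch 2 (25721 genes). The lungs came from wild-type C57BL/6J mice at postnatal day 1 (PND1), and whole lung was dissociated to single cells and profiled by Drop-seq, a droplet method that counts the 3′ ends of transcripts with unique molecular identifiers (UMIs). Each batch was 1 mouse, both mice had the same genotype and age, and there was no treatment, so the comparisons are between kinds of cell within the same 2 lungs. Of 9944 deposited cell barcodes, 8003 had at most 10% of UMIs from mitochondrial genes and were used, 2388 in Batch 1 (median 1386.5 UMIs per cell) and 5615 in Batch 2 (median 2014). Batch 2 lost 1940 cells to this limit and Batch 1 lost 1.

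Endothelial cells line blood and lymphatic vessels, and their identity is held by a small circle of transcription factors that bind many of the same enhancers. SOXF and ETS factors switch on endothelial genes during development, KLF2 and KLF4 are raised by blood flow and keep the vessel wall quiescent and resistant to clotting, GATA2 acts with the ETS factors, EPAS1 (HIF-2α) answers to low oxygen, and HEY1 is a target of Notch in arteries. In the lung the capillary bed holds general capillary cells and aerocytes, the large thin cells that face the alveolar air space and carry gas exchange.

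Cells were grouped by clustering on other genes, with the 10 factors and the listed factors and targets described below left out, and groups were named from fixed marker genes. Blood endothelium held 552 cells of Batch 1 and 1475 of Batch 2, and lymphatic-like endothelium held 19 and 26. Within blood endothelium, 286 and 548 cells were general capillary-like, 43 and 149 aerocyte-like, 29 and 112 arterial-like and 23 and 54 venous-like, while 171 and 612 had no named class. The last group held a sub-cluster led by haemoglobin genes and a deep one led by Kcnh1, Scn7a, Prx and Car4. The deep one had 65 and 255 cells and a median of 4947 UMIs, against 1218 in aerocyte-like cells. Prx and Car4 were on the marker list for aerocytes too. Values given for aerocyte-like cells therefore leave out this sub-cluster with aerocyte markers. Some further cells entered no comparison, 47 and 32 unnamed cells and a cluster of 24 and 84 cells led by histone genes with much Hba-a1 (509 and 590 UMIs per 10000 UMIs). That cluster also held endothelial transcripts, with Pecam1 at 2.09 and 2.94, Sox17 at 1.81 and 0.927, Sox18 at 1.25 and 0.309, Klf4 at 1.11 and 3.58 and Epas1 at 2.09 and 4.04.

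The markers given here followed these names, with weak points in the venous-like and general capillary-like classes. The largest general capillary-like sub-cluster (191 and 313 cells) had no listed general capillary marker among its 10 leading genes. Another (74 and 172 cells) had Gpihbp1 and Sparcl1 among them. Car4, a carbonic anhydrase of aerocytes, was at 14.2 and 15.8 UMIs per 10000 UMIs in aerocyte-like cells of Batch 1 and Batch 2, against 0.598 and 1.01 in general capillary-like cells. Gpihbp1, which anchors lipoprotein lipase in capillaries, was at 8.51 and 6.88 in general capillary-like cells and at 3.82 and 1.59 in aerocyte-like cells. Bmx, a kinase of arterial endothelium, was at 2.71 and 3.15 in arterial-like cells, and Prox1, the lymphatic master factor, was at 5.61 and 5.59 in lymphatic-like cells. The venous-like class had much Vwf (6.94 and 4.15) but little of the venous marker Slc6a2 (0.116 and 0.746).

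All 10 factors were higher in blood endothelium than in epithelium and than in mesenchyme, and most were higher than in immune cells and in lymphatic-like endothelium. In edgeR's quasi-likelihood test on UMIs summed by lineage and batch, with batch as a block and Benjamini-Hochberg adjustment, 10 of 10 were called higher against epithelium and 10 of 10 against mesenchyme, where 16.8% and 13.2% of the 11808 tested genes were. Against immune cells 9 of 10 were called higher (14.5% of genes), and against lymphatic-like endothelium 7 of 10 (5.56% of genes). In that last comparison 67.3% of all calls were higher, and 38.1% with DESeq2. The factors were picked because they are known from this tissue, so these directions are a description of known genes. From these same Drop-seq cells the study's authors had also predicted Epas1, Klf2, Klf4, Gata2, Sox17, Erg, Hey1 and Fli1 as factors of vascular endothelium. Their directions were therefore not independent of these data. The median log2 fold change of the 10 was 5.51, 4.58, 4.22 and 2.93 in the 4 comparisons, beside -0.01, -0.04, 0.05 and 0.51 over all genes. All 4 comparisons share the same blood endothelial sums, and their p-values rest on 2 mice, with classes that were made from other genes of the same cells.

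**Figure D1:**
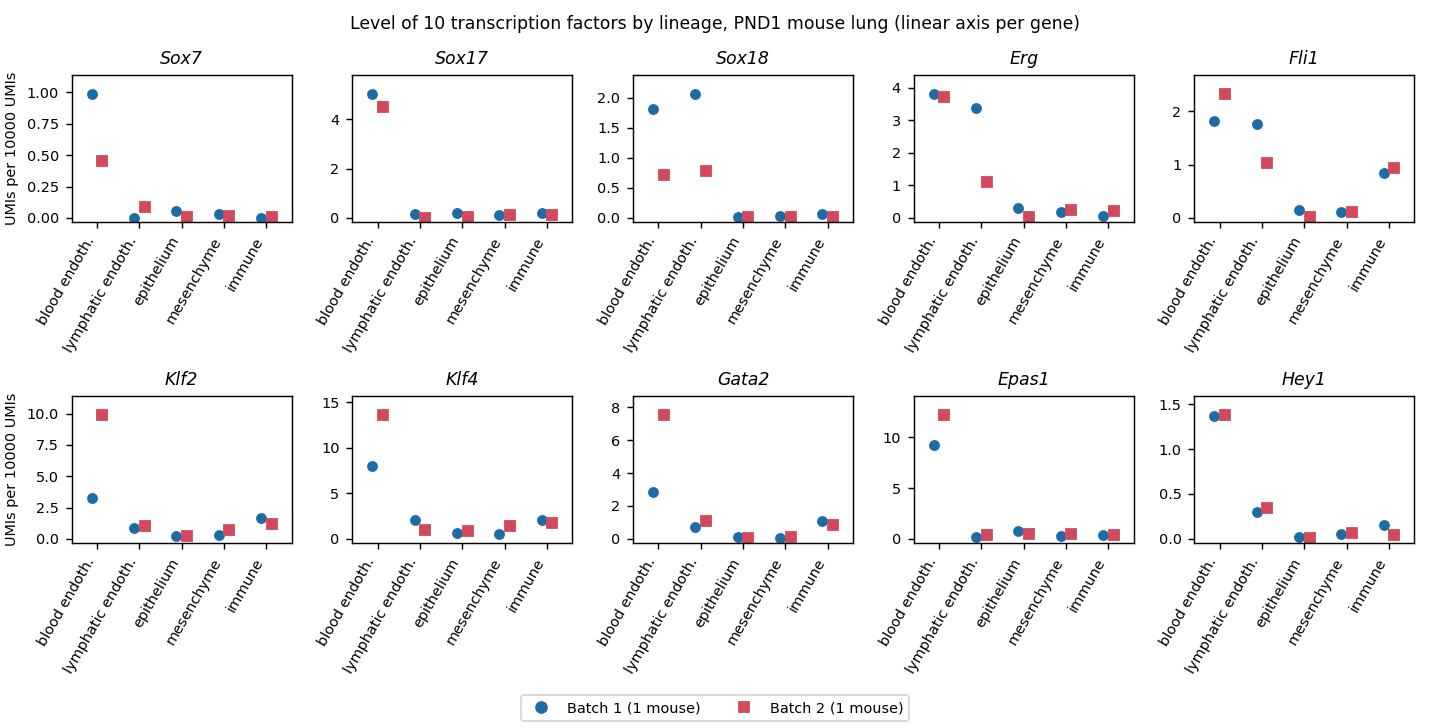
Level of each factor in UMIs per 10000 UMIs (linear axis, 1 panel per gene, each with its own range) in 5 lineages, with 1 point per mouse (circle, Batch 1; square, Batch 2). For all 10 genes both blood endothelial points lie above both points of epithelium and of mesenchyme, and Sox18 is as high in lymphatic-like endothelium.

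Each comparison among the classes of blood endothelium called from 1 to 4 of the 10 factors. In a fit of endothelial sums alone (4356 genes), 1 of 10 differed between aerocyte-like and general capillary-like cells, where 3.54% of all genes did, and 2 of 10 between arterial-like and general capillary-like cells (5.19% of genes). Between arterial-like and aerocyte-like cells 3 of 10 differed (9.94% of genes). A comparison of venous-like with general capillary-like cells, which was added after the levels had been seen, called 4 of 10 (10.3% of genes), all lower in the venous-like class. Comparisons with the same class share its sums, and the classes also differ in depth, with median UMIs per cell of 1012 and 1294 in aerocyte-like, 1213 and 1867.5 in general capillary-like, 2122 and 2444 in arterial-like and 2295 and 3521 in venous-like cells.

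**Figure D2:**
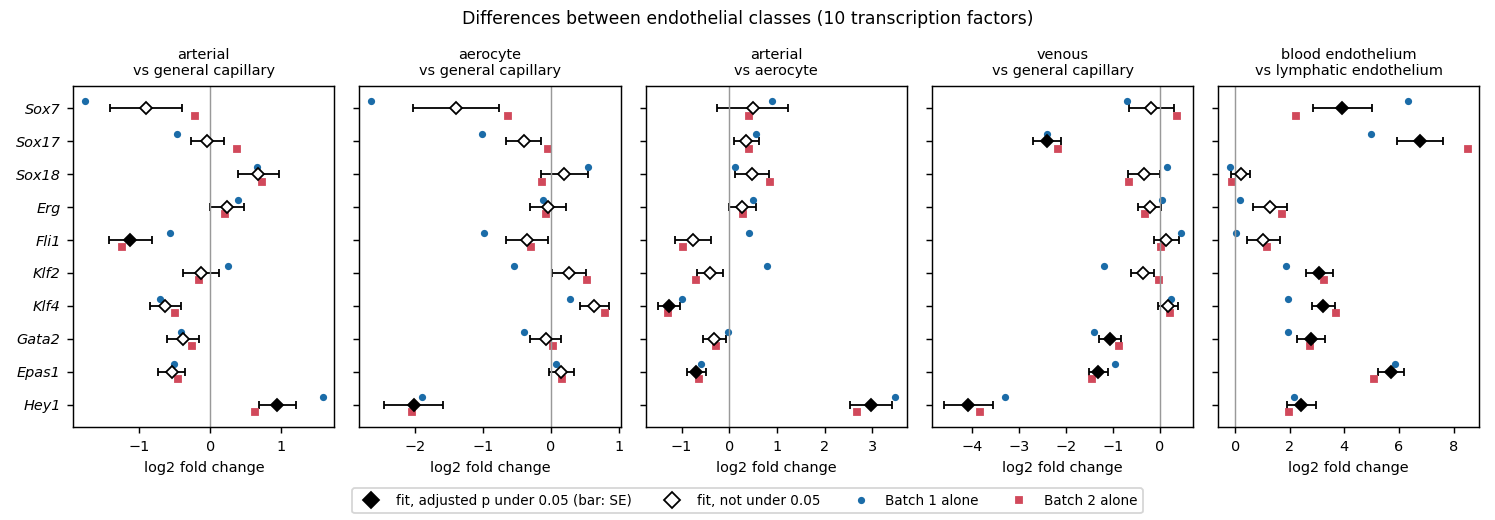
Log2 fold change of each factor in 5 comparisons from the edgeR fits (diamonds, filled where the adjusted p is under 0.05; bars, SE), with the log2 difference in each batch alone (circle, Batch 1; square, Batch 2). Hey1 is filled in all 5 panels and changes sign between them, at -2.03 for aerocyte-like and 0.94 for arterial-like cells against general capillary-like cells, while Erg and Sox18 are open in all 5.

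The SOXF genes encode the SOX7, SOX17 and SOX18 proteins, related HMG-box factors that act in part redundantly in vessel formation. Sox17 (chr1:4490931-4497354, minus strand; positions are of mm10) was at 5.03 and 4.49 UMIs per 10000 in blood endothelium. It was at 0.201 and 0.0355 in epithelium, 0.0973 and 0.098 in mesenchyme and 0.187 and 0.124 in immune cells. Each of these lineage levels was thus at most 3.99% of that in blood endothelium, and the log2 fold change was 5.79 ± 0.46 (SE) against epithelium (adjusted p = 1e-07), 5.56 ± 0.43 against mesenchyme and 4.83 ± 0.47 against immune cells. In lymphatic-like endothelium Sox17 had 1 UMI in the 19 cells of Batch 1 and none in the 26 cells of Batch 2. With 2528 UMIs in blood endothelium, the ratio of summed levels was 84.6, with a 95% counting interval of 15.2 to 3342 (adjusted p = 0.00012).

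Sox17 also differed along the vessels. It was at 6.31 and 4.52 UMIs per 10000 in general capillary-like cells, 4.55 and 5.86 in arterial-like cells, 3.09 and 4.37 in aerocyte-like cells and 1.16 and 0.985 in venous-like cells. General capillary-like and arterial-like cells overlapped, aerocyte-like cells lay below both without being called against either, and the venous-like class was lowest in both mice. The fold change of venous-like against general capillary-like cells was -2.41 ± 0.29 on the log2 scale (adjusted p = 8.9e-08), with -2.41 and -2.16 in the single batches. Arterial-like cells differed from general capillary-like cells by -0.04 (95% interval -0.51 to 0.43), and the 2 mice went in opposite directions (-0.47 and 0.37).

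Sox18 (chr2:181669836-181671640, minus strand), the SOXF gene known for its role in lymphatic vessel formation, was the 1 member of the family that lymphatic-like cells shared. Its level was 1.82 and 0.713 UMIs per 10000 in blood endothelium and 2.07 and 0.773 in lymphatic-like endothelium. The lymphatic-like level was 114% and 109% of that in blood endothelium, and the log2 fold change of 0.21 had a 95% interval from -0.52 to 0.94 (adjusted p = 0.78). In epithelium, mesenchyme and immune cells as a whole the level was at most 0.0623, in immune cells of Batch 1, and the fold change was 6.23 ± 0.38 against epithelium and 6.00 ± 0.36 against mesenchyme. Within blood endothelium the classes ran from 1.87 to 2.95 in Batch 1 and from 0.508 to 1.39 in Batch 2, with the arterial-like class at the top in both mice. That difference from general capillary-like cells, 0.67 ± 0.29, did not pass the threshold (adjusted p = 0.23).

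Sox7 (chr14:63943673-63950732, plus strand) was sparse. It had 103 UMIs in blood endothelium of Batch 1 and 201 in Batch 2, which is 0.989 and 0.450 per 10000. Immune cells had 1 UMI in all, for a ratio of 84.6 with a counting interval of 15.1 to 3353, and lymphatic-like endothelium also had 1 UMI in all, for a ratio of 10.2 with an interval of 1.81 to 403 (adjusted p = 0.034). General capillary-like cells had 1.34 and 0.432 per 10000 and aerocyte-like cells 0.182 and 0.265, a log2 fold change of -1.40 ± 0.63 that did not pass the threshold (adjusted p = 0.28).

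Blood endothelial cells differed in which SOXF transcripts were seen in them. At least 1 of the 3 genes was detected in 349 of 552 blood endothelial cells of Batch 1 (63.2%) and in 906 of 1475 of Batch 2 (61.4%). Sox17 was the only one in 155 and 527 cells, which is most of the positive cells of Batch 2 but not of Batch 1, at least 2 of the genes were seen in 118 and 263, and all 3 in 18 and 38. Deep cells show more of any gene, so these overlaps are given as counts.

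ERG and FLI1 are ETS factors that bind the enhancers of most endothelial genes, and FLI1 also acts in blood cells. Erg (chr16:95359169-95586593, minus strand) was at 3.82 and 3.72 UMIs per 10000 in blood endothelium. Its levels were 0.301 and 0.0294 in epithelium, 0.184 and 0.249 in mesenchyme and 0.0623 and 0.198 in immune cells. Blood endothelium lay far above these in both mice, with log2 fold changes of 5.14 ± 0.65, 4.06 ± 0.56 and 4.29 ± 0.66. Within mesenchyme, Erg was highest in myofibroblast- and smooth muscle-like cells, at 0.781 and 0.667, where fibroblast-like cells had 0.0811 and 0.0792.

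No comparison among classes of blood endothelium called Erg, and none of its 95% intervals reached a log2 difference of 1 there. Its levels were 3.56 and 3.59 UMIs per 10000 in general capillary-like cells, 3.28 and 3.40 in aerocyte-like cells, 4.67 and 4.15 in arterial-like cells and 3.70 and 2.87 in venous-like cells. In lymphatic-like endothelium it was at 3.39 and 1.12, which is 88.8% and 30.1% of the blood endothelial level. That difference was not called (1.28 ± 0.63, adjusted p = 0.24).

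Fli1 (chr9:32422204-32542861, minus strand), whose interval holds 6 other annotated genes so that reads could be shared, was at 1.82 and 2.33 UMIs per 10000 in blood endothelium. In immune cells it stood at 0.842 and 0.933, or 46.4% and 40.0% of that level. This was the 1 comparison outside endothelium in which a factor was not called (1.07 ± 0.46, adjusted p = 0.098, 95% interval 0.09 to 2.05), and it was called under 5 of 11 alternatives. An immune cluster led by Mcpt8, Pf4 and Ppbp, genes of basophils and platelets, reached 2.51 and 2.34 in 16 and 48 cells, and macrophage- and monocyte-like cells had 0.516 and 0.741. Within endothelium Fli1 was lower in arterial-like cells (1.23 and 1.02) than in general capillary-like cells (1.84 and 2.49), by -1.12 ± 0.31 on the log2 scale (adjusted p = 0.019). The single batches gave -0.57 and -1.25, and the call was lost under 5 of 11 alternatives. Aerocyte-like cells had 0.910 and 2.03, below arterial-like cells in Batch 1 and above them in Batch 2. Venous-like cells had 2.55 and 2.54. In lymphatic-like endothelium Fli1 was at 1.77 and 1.03, which is 97.5% and 44.2% of the blood endothelial level. That difference was not called (1.03 ± 0.60, adjusted p = 0.34).

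KLF2 and KLF4 are zinc-finger factors induced by laminar flow, and their genes also respond quickly to tissue handling, as immediate early genes do. Klf2 (chr8:72319033-72321656, plus strand) and Klf4 (chr4:55527143-55532466, minus strand) were both higher in blood endothelium of Batch 2 than in that of Batch 1. In immune cells both were lower in Batch 2. Their upstream sequences are shown because flow signals are known to reach Klf2 through a MEF2 site in its promoter. RefSeq promoters were at hand for Klf2, Klf4, Gata2 and Erg. The lines below give the bases 5′ to 3′ on the gene's strand upstream of the annotated start, from GRCm38.p6, at chr8:72318812-72319032 (221 bases) and chr4:55532476-55532725 (250 bases). Capitals mark the GC box GGGCGG, the cAMP response element half-site TGACG and the MEF2 site CTAAATTTAG on either strand.
Klf2: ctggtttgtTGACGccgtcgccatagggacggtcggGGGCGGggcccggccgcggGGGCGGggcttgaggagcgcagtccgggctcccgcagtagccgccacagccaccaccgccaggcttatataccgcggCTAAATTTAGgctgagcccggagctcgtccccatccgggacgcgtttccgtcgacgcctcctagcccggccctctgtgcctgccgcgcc
Klf4: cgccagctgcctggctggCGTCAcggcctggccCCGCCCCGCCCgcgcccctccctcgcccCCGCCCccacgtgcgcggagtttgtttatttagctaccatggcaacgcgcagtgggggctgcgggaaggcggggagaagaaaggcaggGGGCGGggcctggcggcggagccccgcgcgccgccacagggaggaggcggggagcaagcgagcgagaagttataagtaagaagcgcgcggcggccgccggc
The Klf2 stretch holds 2 GC boxes, 1 half-site and 1 match to the MEF2 letters. The Klf4 stretch holds 4 GC boxes (some in capitals run together), 1 half-site and no match to these MEF2 letters. In windows of 221 bases, 28.7% of 32851 promoters hold the GC box, 15.0% the half-site and 0.0365% (12 promoters) the MEF2 letters, and in windows of 250 bases 32.7%, 17.8% and 0.0396%. The motifs were chosen after the sequences had been seen, and a match describes letters only. The MEF2 letters were taken from the Klf2 stretch, so its match was fixed beforehand and their share is that of 1 exact string. Other forms of the MEF2 site were not searched in Klf4 or in the other promoters.

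Klf2 was at 3.25 UMIs per 10000 in blood endothelium of Batch 1 and 9.91 in Batch 2. Klf4 was at 7.95 and 13.6. In immune cells Klf2 had 1.65 and 1.23 and Klf4 2.09 and 1.75, so immune cells held 50.9% of the blood endothelial Klf2 level in the first lung and 12.4% in the second. Klf2 gave a log2 fold change of 4.74 ± 0.43 against epithelium, 3.63 ± 0.38 against mesenchyme and 1.96 ± 0.38 against immune cells (adjusted p = 0.00092). Klf4 gave 3.52 ± 0.34, 3.43 ± 0.34 and 2.34 ± 0.34, the smallest of the 10 against epithelium and mesenchyme.

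Both genes were also seen in cells other than endothelium. Klf4 reached 4.91 and 17.9 UMIs per 10000 in mesothelium-like cells (20 and 11 cells) and Klf2 2.57 and 7.72 there. In epithelium, Klf4 was detected in 14.3% of cells of Batch 1 (95% Wilson interval 10.9 to 18.5%) and 26.9% of Batch 2 (24.7 to 29.2%). The 8 general endothelial markers, which epithelium should lack, were detected in 0.305% (Mmrn2) to 15.9% (Ramp2) of the same cells in Batch 1 and in 0.614% (Mmrn2) to 9.96% (Esam) in Batch 2, at median depths of 2159.5 and 3544.5 UMIs. Klf4 in epithelium was above that range in Batch 2 and within it in Batch 1. Alveolar type 1-like cells had more of it (1.08 and 1.35) than airway-like cells (0.191 and 0.205). Wilson intervals cover counting error only.

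Among the named classes of blood endothelium Klf4 was highest in aerocyte-like cells and lowest in arterial-like cells in both mice. Its levels were 8.56 and 20.4 UMIs per 10000 in aerocyte-like, 8.33 and 13.7 in venous-like, 7.03 and 11.7 in general capillary-like and 4.30 and 8.30 in arterial-like cells. Arterial-like against aerocyte-like cells gave -1.27 ± 0.23 on the log2 scale (adjusted p = 0.00013; -0.99 and -1.29 in the single batches). General capillary-like cells were not called apart from either end of this order, with 0.64 ± 0.21 for aerocyte-like (adjusted p = 0.096) and -0.63 ± 0.22 for arterial-like (adjusted p = 0.10) against general capillary-like cells. Klf2 showed no such order, since aerocyte-like cells were below general capillary-like cells in Batch 1 (2.55 and 3.73) and above them in Batch 2 (13.2 and 9.12). In lymphatic-like endothelium Klf2 was at 0.885 and 1.03 and Klf4 at 2.07 and 1.03, lower than in blood endothelium by 3.08 ± 0.50 and 3.24 ± 0.42 on the log2 scale.

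The 2 lungs differed in these genes. The level in blood endothelium of Batch 2 over that of Batch 1 was 3.05 for Klf2, 2.66 for Gata2 and 1.71 for Klf4, against 0.455 for Sox7 and 0.393 for Sox18. Endothelial markers ranged too, from 0.486 for Cldn5 to 1.34 for Pecam1, and 1 mouse per batch allows no test. In mesenchyme the same ratio was 2.51 for Klf2, 1.82 for Gata2 and 2.62 for Klf4. For these genes in that order it was 0.982, 0.494 and 1.33 in epithelium and 0.745, 0.772 and 0.838 in immune cells. The summed level of 14 immediate early genes in general capillary-like cells was 17.3 UMIs per 10000 in Batch 1 and 46.2 in Batch 2. In Batch 2, blood endothelial cells thinned to 600 UMIs with 0 to 2, 3 to 7 and at least 8 immediate early UMIs (820, 594 and 61 cells) had Klf4 at 11.3, 13.7 and 19.9 per 10000 and Klf2 at 8.19, 10.3 and 12.0. Gata2 was at 8.15, 8.19 and 6.83 and Epas1 at 12.1, 12.3 and 12.3 in the same bins, without such a rise. In Batch 1, Klf4 was at 7.74 in 493 cells and 6.32 in 58 cells of the first 2 bins, so the rise was seen in 1 mouse. The part of immediate early induction or of the batch in the KLF levels was not tested.

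GATA2 is a zinc-finger factor of endothelium and of blood progenitors, mast cells and basophils. Gata2 (chr6:88193891-88207032, plus strand) was at 2.83 and 7.53 UMIs per 10000 in blood endothelium and at most 0.138 in epithelium and mesenchyme of either mouse. Immune cells had 1.09 and 0.842. Most of that came from 1 cluster, the one led by Mcpt8, Pf4 and Ppbp, with 7.54 and 5.66 per 10000 and 30 of 35 and 87 of 102 immune UMIs. Gata2 in that cluster was above the blood endothelial level in Batch 1 and below it in Batch 2, and mesothelium- and lymphocyte-like cells had no UMI. The log2 fold change was 5.81 ± 0.48 against epithelium, 5.53 ± 0.44 against mesenchyme and 2.28 ± 0.39 against immune cells (adjusted p = 0.00032).

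Gata2 was at 3.13 and 7.74 in general capillary-like, 2.37 and 7.90 in aerocyte-like and 2.34 and 6.47 in arterial-like cells, and no comparison among these called it. It was lower in venous-like cells (1.16 and 4.24), by -1.06 ± 0.24 on the log2 scale (adjusted p = 0.0014). Lymphatic-like endothelium had 0.738 and 1.12, against which blood endothelium was higher by 2.77 ± 0.50 (adjusted p = 0.0023).

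EPAS1 is the hypoxia-inducible factor subunit of endothelium and of alveolar and perivascular cells. Epas1 (chr17:86753700-86833410, plus strand) was detected in 67.8% of blood endothelial cells in Batch 1 and 82.8% in Batch 2, at 9.24 and 12.2 UMIs per 10000. Among mesenchymal cells, pericyte-like cells had 2.28 and 2.48, while fibroblast-like cells had 0.125 and 0.198 and mesothelium-like cells none. In epithelium it was at 0.747 and 0.520, in 15.9% (12.3 to 20.2%) and 17.5% (15.6 to 19.5%) of cells, above the shares of all 8 general endothelial markers in Batch 2 but within their range in Batch 1. Fold changes were 3.89 ± 0.31 against epithelium, 4.77 ± 0.32 against mesenchyme and 4.73 ± 0.35 against immune cells on the log2 scale.

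Among the named endothelial classes Epas1 was highest in the capillary ones. Aerocyte-like cells had 10.6 and 13.9 UMIs per 10000, general capillary-like cells 10.0 and 12.4, arterial-like cells 7.01 and 8.98 and venous-like cells 5.21 and 4.51. The order was the same in both mice. The arterial-like level was below the aerocyte-like level by -0.69 ± 0.20 (adjusted p = 0.019) and the venous-like level below the general capillary-like level by -1.31 ± 0.20 (adjusted p = 7.1e-06). Arterial-like against general capillary-like cells gave -0.54 ± 0.19, which was not called (adjusted p = 0.10). Lymphatic-like endothelium had 0.148 and 0.344, 1.60% and 2.82% of the blood endothelial level, and the fold change was 5.69 ± 0.48 on the log2 scale (adjusted p = 2.3e-06).

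HEY1 is a basic helix-loop-helix repressor induced by Notch and a marker of arterial fate. Hey1 (chr3:8663359-8667256, minus strand) was at 1.36 and 1.38 UMIs per 10000 in blood endothelium and at most 0.156 in epithelium, mesenchyme and immune cells as a whole. Arterial-like cells had 4.43 and 2.76, with the transcript in 48.3% and 49.1% of cells. General capillary-like cells had 1.46 and 1.77 (16.8% and 25.4% of cells), aerocyte-like cells 0.364 and 0.397 and venous-like cells 0.116 and 0.0896. The 4 classes did not overlap between mice, and Hey1 was the 1 factor called in all 4 comparisons run among them. After thinning all cells to 600 UMIs the shares were 17.2% and 16.1% in arterial-like and 6.99% and 8.58% in general capillary-like cells.

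The log2 fold change of Hey1 was 0.94 ± 0.27 for arterial-like against general capillary-like cells (adjusted p = 0.025; 1.58 and 0.63 in the single batches), and it failed the threshold under 6 of 11 alternatives. It was -2.03 ± 0.44 for aerocyte-like against general capillary-like cells (adjusted p = 0.0033), 2.97 ± 0.43 for arterial-like against aerocyte-like cells (adjusted p = 3.4e-06) and -4.08 ± 0.52 for venous-like against general capillary-like cells (adjusted p = 2.3e-07). The aerocyte-like class held 2 and 9 Hey1 UMIs and the venous-like class 1 and 3, so these sizes are imprecise. Lymphatic-like endothelium had 0.295 and 0.344, lower than blood endothelium by 2.43 ± 0.54 (adjusted p = 0.011).

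**Figure D3:**
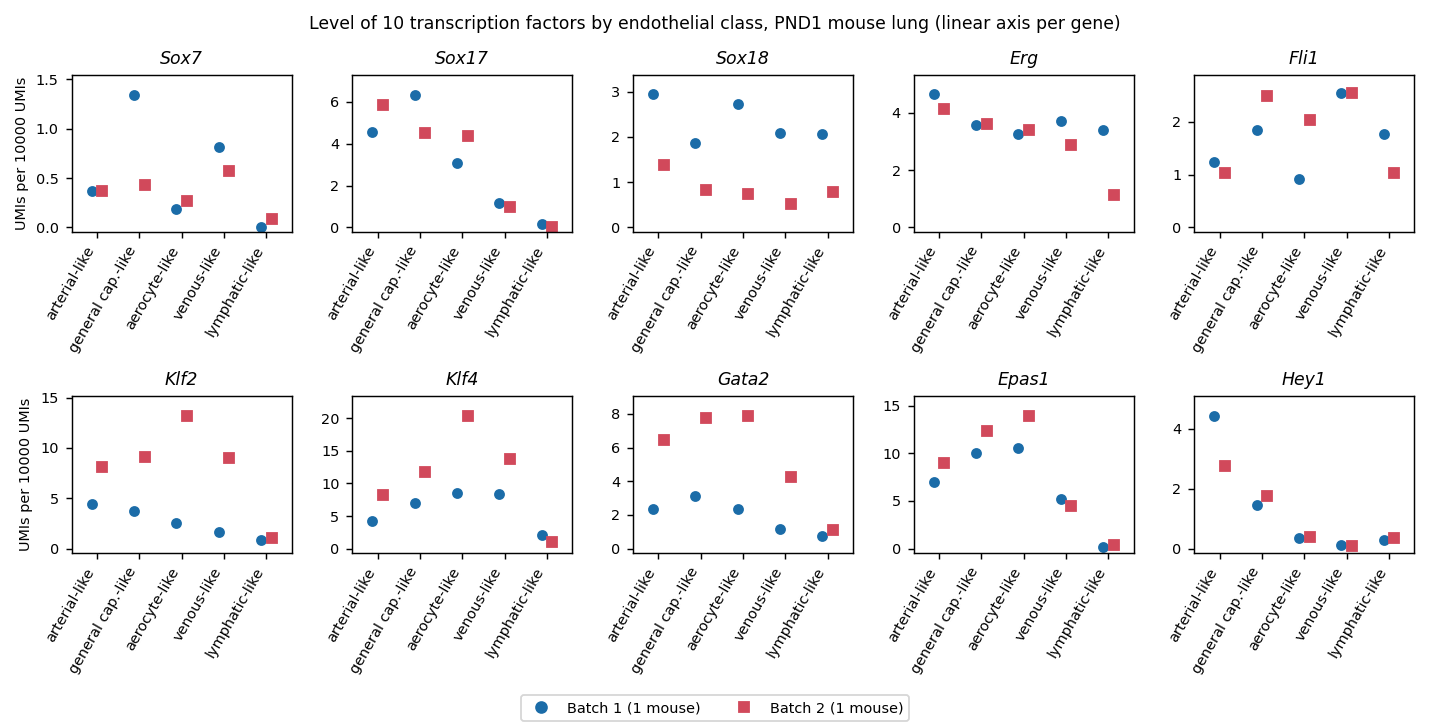
Level of each factor in UMIs per 10000 UMIs (linear axis, 1 panel per gene with its own range) in 5 endothelial classes, with 1 point per mouse (circle, Batch 1; square, Batch 2). Hey1 falls from arterial-like (4.43 and 2.76) to venous-like cells (0.116 and 0.0896), Sox17 drops in venous- and lymphatic-like cells, and Klf2 and Gata2 lie higher in Batch 2 in all 5 classes.

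Blood endothelial cells carried several of the factors at once. The median number detected per cell was 3 of 10 in Batch 1 and 5 in Batch 2, and 3.80% and 0.678% of cells showed none. With every cell thinned to 600 UMIs the mean was 1.81 and 2.36 factors per blood endothelial cell. It was 0.137 and 0.119 in epithelium, 0.0846 and 0.167 in mesenchyme, 0.328 and 0.294 in immune cells and 0.526 and 0.308 in lymphatic-like endothelium. Blood endothelium was thus above each of these lineages at equal depth in both mice. In Batch 2, Klf2 was detected in 1010 cells, Klf4 in 1104 and both in 850, where the product of their shares gives 756. Erg was detected in 749, Fli1 in 538 and both in 342, where the product gives 273. In Batch 1 both genes of these pairs were seen in 114 and 58 cells, where the products give 85.2 and 44.3. These pairs were not unusual, since every pair of the 10 exceeded its product in Batch 2. Among pairs of different families, Sox7 and Fli1 were both seen in 96 cells there (product 61.6) and Sox18 and Hey1 in 93 (product 62.3). In Batch 1, Sox7 with Hey1 (11 cells, product 13.9) and Klf2 with Hey1 (30 cells, product 30.1) fell below. Differences in depth between cells also raise joint detection.

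General endothelial markers were counted at low levels outside endothelium as well. The 8 general endothelial markers stood in epithelium at a median of 4.27% of their blood endothelial level in Batch 1 and 0.810% in Batch 2, and the 10 factors at 6.08% and 0.847%. In mesenchyme the markers were at 2.41% and 2.75% and the factors at 3.38% and 4.64%. In immune cells the markers were at 2.44% and 2.85% and the factors at 7.91% and 4.16%, with Fli1, Klf2, Gata2 and Klf4 highest. Among lymphatic-like cells, Epas1 and Sox17 were as low relative to blood endothelium (0 to 2.93%) as markers were in mesenchyme. Haemoglobin Hba-a1, from lysed red cells, was at 192 and 41.1 UMIs per 10000 in blood endothelium, and the part of free RNA in each level was not tested.

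**Figure D4:**
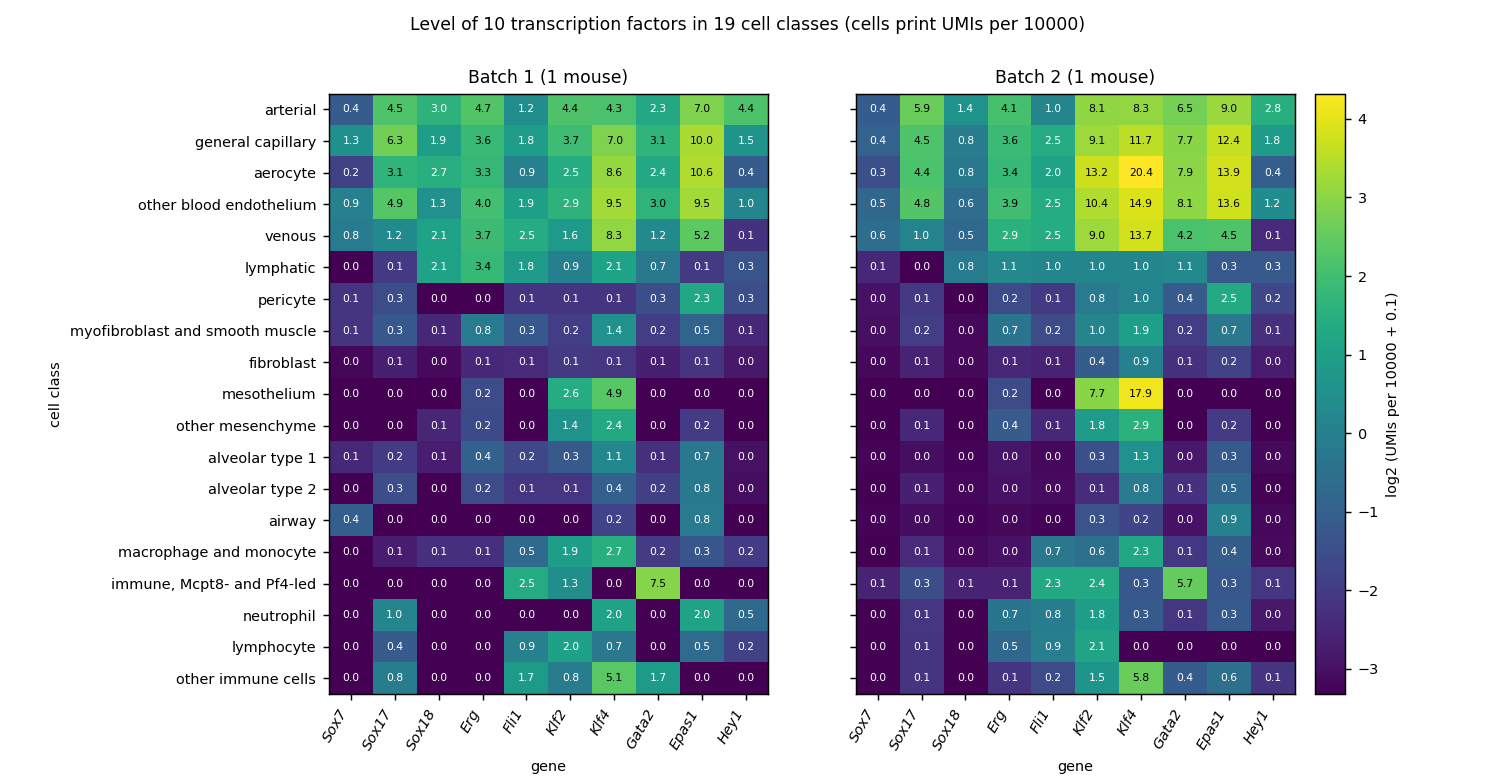
Level of the 10 factors in 19 cell classes, with Batch 1 left and Batch 2 right, coloured by log2 of UMIs per 10000 plus 0.1 and with UMIs per 10000 printed in each cell of the grid. Outside endothelium, bright fields include Gata2 in the immune cluster led by Mcpt8 and Pf4 (7.54 and 5.66) and Klf4 in mesothelium-like cells (4.91 and 17.9).

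Cells above the mitochondrial limit kept most of these levels. In Batch 2, 403 further cells over 10% were nearest to blood endothelium, and on a scale without mitochondrial UMIs they had Sox17 at 4.89 per 10000 against 4.76 in the cells used, Klf4 at 13.9 against 14.5 and Gata2 at 7.83 against 7.98. Klf2 differed most in absolute terms, at 7.44 against 10.5.

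Other factors of endothelium, listed by family, followed the 10 only in part. Of 54 listed, 49 were tested between lineages, and 28 were higher and 5 lower in blood endothelium than in epithelium, where 16.8% and 19.6% of all genes were (median log2 fold change 1.38, beside -0.01 over all genes). Bcl6b, a repressor of endothelium, was higher by 5.59 ± 0.54 and Lmo2, a partner of GATA factors, by 5.13 ± 0.59, while the epithelial ETS gene Etv5 was lower by 5.34 ± 0.35. Against mesenchyme 25 were higher and 9 lower (13.2% and 13.6% of all genes), with Hhex at 5.34 ± 0.53, and with Heyl, a Notch effector of mural cells, at -5.21 ± 0.49. Against immune cells 28 were higher and 2 lower, Etv6 and Lyl1 (14.5% and 14.9% of all genes). Against lymphatic-like endothelium 14 were higher and 4 lower (5.56% and 2.7% of all genes). The lower ones were Foxc2, which forms lymphatic valves, Nr2f2, a venous and lymphatic factor, Meox1 and Egln3. Of the 5 genes listed as HIF and partners, none was called higher in blood endothelium against any of the 4 lineages. Of all genes 16.8%, 13.2%, 14.5% and 5.56% were called higher, and 5 genes are too few to be set against these shares.

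Among the endothelial classes 33 of the 54 were tested. Tbx2 (3.33 ± 0.53), Tbx3 (1.80 ± 0.21) and Foxf1 (1.07 ± 0.25) were higher and Foxp1 (-0.68 ± 0.19) lower in aerocyte-like than in general capillary-like cells, where 2.07% of all genes were higher and 1.47% lower. Tbx3 was at 13.1 and 13.0 UMIs per 10000 in aerocyte-like cells and 4.61 and 3.29 in general capillary-like cells, where of the 10 factors Hey1 alone was called. In arterial-like cells Mecom (3.80 ± 0.41), Gata6 (2.38 ± 0.38) and Foxo1 (1.65 ± 0.40) were higher and Nr2f2 (-1.87 ± 0.50), Tbx3 (-1.35 ± 0.26), Foxf1 (-0.94 ± 0.27) and Ets1 (-0.90 ± 0.25) lower, against 3.1% and 2.09% of all genes. Between arterial-like and aerocyte-like cells 4 were higher, led by Mecom (4.64 ± 0.65), and 6 lower, led by Tbx2 (-4.30 ± 0.70), against 4.25% and 5.69% of all genes. In venous-like cells 4 were higher, led by Nr2f2 (3.04 ± 0.28), and 5 lower, led by Tbx3 (-3.58 ± 0.35), against 4.66% and 5.65% of all genes.

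Genes reported as targets of these factors were blood endothelial as well. All 16 were higher in blood endothelium than in epithelium, mesenchyme and immune cells, where 16.8%, 13.2% and 14.5% of all genes were, with median log2 fold changes of 5.18, 4.62 and 4.59 (-0.01, -0.04 and 0.05 over all genes). Against lymphatic-like endothelium 9 of 16 were higher (5.56% of all genes). The 16 were listed because they are known from endothelium, so these directions are a description of known genes. Among the classes the 16 split. Kdr, the main VEGF receptor, was higher in aerocyte-like than in general capillary-like cells (1.59 ± 0.25) with Cd34 and Icam2 (3 of 16, 2.07% of all genes), and Edn1, the endothelin-1 gene (-1.66 ± 0.42), and Tek (-1.53 ± 0.29) were lower (1.47% of all genes). Vwf (4.03 ± 0.34), Nos3, the nitric oxide synthase gene induced by KLF2 (1.47 ± 0.35), Edn1 (1.10 ± 0.30) and Efnb2 (1.05 ± 0.24) were higher in arterial-like cells, and Kdr (-1.39 ± 0.31) and Thbd (-1.39 ± 0.21) lower (3.1% and 2.09% of all genes). Between arterial-like and aerocyte-like cells 5 were higher and 4 lower (4.25% and 5.69% of all genes). In venous-like cells Vwf and Nos3 were higher and Efnb2 lower (-1.20 ± 0.29), and the Notch ligand gene Dll4, also called lower, had no UMI in either mouse (4.66% of all genes were higher and 5.65% lower).

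A list of 16 immediate early and heat shock genes does not hold Klf2 or Klf4. Of 15 tested, 2 were higher and 2 lower in blood endothelium than in epithelium (16.8% and 19.6% of all genes) and 2 and 3 against mesenchyme (13.2% and 13.6%). Against immune cells 1 was higher and 8 lower (14.5% and 14.9%), and against lymphatic-like endothelium 6 were higher and none lower (5.56% and 2.7%). Among classes, 1 of 13 was lower in aerocyte-like than in general capillary-like cells (Socs3, -2.19 ± 0.59, beside 1.47% of all genes). Between arterial-like and general capillary-like cells none was called, beside 5.19% of all genes. In arterial-like cells 3 were higher and 1 lower than in aerocyte-like cells (4.25% and 5.69% of all genes). In venous-like cells Fos was higher (1.24 ± 0.30, beside 4.66% of all genes), and 13 genes are too few to be set against these shares.

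The genes whose levels ran most like each factor were found over 19 cell classes, among 7372 genes, by the smaller of the 2 batches' Pearson correlations of log2 levels. The classes of a batch share its library and free RNA, and the values are descriptions. Kif26a was closest to Sox18 (0.918), Clec1a to Epas1 (0.864), Tek to Erg (0.861), Flt1 to Sox17 (0.853), Klf3 to Klf2 (0.824), Pcdh1 to Sox7 (0.822), Clec1a to Hey1 (0.820), Psmb8 to Fli1 (0.815) and Cpne8 to Klf4 (0.781). For Gata2 it was 6430548M08Rik (0.827).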

How the data were processed

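The study's authors profiled whole lung from PND1 wild-type mice by Drop-seq in 2 batches of 1 mouse each and aligned reads to mm10 with Bowtie2 2.2.7 per the submitters' processing notes. The deposited values are UMI counts per gene and cell, not normalized. Cells with at most 10% mitochondrial UMIs were kept (4432553 UMIs in Batch 1, 18232639 in Batch 2), and no barcode was shared. The 10 genes and all gene lists were chosen with earlier results of these data known. The 10 were followed in every comparison, though not every fold change is printed, and from each list some genes of large called fold change are named.

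Cells were clustered with scanpy 1.11.5 and Leiden (leidenalg 0.10.2; 2000 variable genes, 30 components, resolution 1.5 for all cells, then 600, 20 and 1 for endothelium) without the 10 genes, 54 listed factors and 16 targets, and named from markers in their summed and leading genes. Scrublet called 13 cells (0.544%) and 118 cells (2.10%) doublets, 12 of them in blood endothelium, and these were kept in the main values. UMIs were summed per class and batch (10 sums per fit, at least 5 cells each) and tested with edgeR 4.0.16 in R 4.3.3 (TMM, filterByExpr, quasi-likelihood, two-sided, Benjamini-Hochberg over all genes, threshold 0.05). Batch was a block, since all sums of a batch come from 1 mouse. Deviations of sums from the same mouse correlated with r of at least 0.0761 (median 0.259) in the lineage fit and 0.102 (median 0.246) in the endothelial fit. Levels are UMIs per 10000 UMIs of a sum, and a log2 difference in a single batch uses a prior count of 2 and has no test. The fits were tested on simulated counts, where with gene-wise dispersions the share of wrong calls was above the threshold of 0.05 in both comparisons simulated, so calls close to the threshold are less certain than their adjusted p states. Alternatives were no block, DESeq2 1.42.0, no gene filter, a limit of 5% or none, thinning to 600 UMIs, marker sums for classes, the factors kept as features, a higher resolution, no doublets, and all classes in 1 fit. The annotation was GENCODE vM21, and promoters were from RefSeq on GRCm38.p6.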

Additional observations from a re-analysis of the deposited data

How the results depend on the processing

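The direction of every called fold change was kept in each batch alone and under all alternatives but 1, Hey1 against lymphatic-like endothelium, which was -0.44 when classes were set by marker sums. That setting called 103 and 304 cells lymphatic and left 0 of the 10 factors called and 21 of all genes. Counts of genes called moved by over 1.5 times as follows. Without the replicate block, which drops the pairing of sums from the same mouse, they fell from 3169 to 2062 against mesenchyme, 975 to 403 against lymphatic-like endothelium, 154 to 13 for aerocyte-like, 226 to 65 for arterial-like and 449 to 162 for venous-like against general capillary-like cells and 433 to 135 between arterial-like and aerocyte-like cells, with 0, 0 and 1 factors called for aerocyte-like, arterial-like and arterial-like against aerocyte-like cells. With DESeq2 the same 4 class comparisons gave 66, 108, 237 and 224, with 0 factors in the first and second. Thinning to 600 UMIs gave 2376 (of 4299) against epithelium, 2084 against mesenchyme, 2102 (of 3475) against immune cells, 512 against lymphatic-like endothelium, 56 for arterial-like (1 factor), 86 for venous-like (2 factors) and 161 between arterial-like and aerocyte-like cells. A limit of 5% gave 127 for arterial-like (1 factor), 267 between arterial-like and aerocyte-like and 271 for venous-like cells. Marker sums gave 70 for aerocyte-like and 89 for venous-like cells (1 factor) and 5 factors between arterial-like and aerocyte-like cells. All classes in 1 fit gave 57 for aerocyte-like, 124 for arterial-like (0 factors) and 228 between them (1 factor). Counting unclassed cells as general capillary, a choice made after seeing the data, gave 5 factors for arterial-like cells. The share of calls that were higher moved from 67.3% to 87.5% (thinned), 28.6% (marker sums), 38.1% (DESeq2) and 48.8% (1 fit) against lymphatic-like endothelium, from 49.2% to 60.2% (1 fit) against mesenchyme, from 49.3% to 77.3% (1 fit) against immune cells, from 58.4% to 29.3% (no filter) for aerocyte-like cells, from 59.7% to 80.0% (no block), 70.4% (DESeq2), 48.8% (no filter) and 75.0% (1 fit) for arterial-like cells, from 42.7% to 54.8% (no block) between arterial-like and aerocyte-like cells and from 45.2% to 56.2% (no block) and 69.7% (marker sums) for venous-like cells. Fold changes that were not called changed sign as follows. For aerocyte-like cells, Sox18 was -0.035 (no filter) and -0.16 (marker sums), Erg 0.12 (5% limit), 0.062 (thinned), 0.022 (marker sums) and 0.00030 (factors as features), Fli1 0.23 (5% limit) and 0.015 (marker sums), Gata2 0.017 (no block), 0.42 (thinned), 0.13 (factors as features) and 0.11 (higher resolution), and Epas1 -0.079 (no filter). For arterial-like cells, Sox17 was 0.035 (factors as features) and 0.13 (higher resolution), Erg -0.18 (marker sums), Klf2 0.062 and Gata2 0.10 (both thinned). Between arterial-like and aerocyte-like cells, Erg was -0.20 (marker sums) and Gata2 0.0098 (5% limit). For venous-like cells, Sox7 was 0.42 (marker sums), 0.16 (factors as features) and 0.0015 (higher resolution), Sox18 0.020 and Klf2 0.19 (marker sums), and Klf4 -0.25 (thinned) and -0.073 (unclassed cells as general capillary). The causes of these shifts were not tested. Called results kept their side of the threshold in 9 of 11 alternatives for Hey1 in aerocyte-like cells, in 5 and 6 of 11 for Hey1 and Fli1 in arterial-like cells, in 10 and 6 of 12 for Klf4 and Epas1 between arterial-like and aerocyte-like cells, in 11 of 12 for Sox17 and Epas1 and 8 of 12 for Gata2 in venous-like cells, in 11 of 11 for Hey1 in these last 2 comparisons, and in 5 of 11 for Sox7, 8 of 11 for Hey1 and 10 of 11 for the other 5 factors called against lymphatic-like endothelium. For Sox17 and Epas1 in venous-like cells, and for those 5, the call was lost with marker sums. Precision rests on 2 mice and on sums as small as 54932 UMIs (aerocyte-like, Batch 1).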
